A study of Mus musculus with 2 samples.

Results

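The proteasome is the barrel-shaped protease that degrades ubiquitin-tagged proteins in the cytoplasm and nucleus, and its subunits are encoded by genes named Psm in the mouse. The group described here holds every gene whose symbol is Psm followed by a letter from a to g and a number, with at least 1 transcript annotated as protein-coding. This name rule took in 48 genes of the 55536 annotated genes in the tables, 22028 of which are protein-coding, and no measured value entered the choice. It covers 8 alpha-ring genes (Psma), 11 beta-ring genes (Psmb), the 6 ATPases of the cap (Psmc) and 14 Psmd genes. Of these 14, 11 are other cap genes and 3 are assembly chaperones of the cap base. The rest are 4 activators (Psme), the inhibitor Psmf1 and 4 assembly chaperones of the core (Psmg). The rule leaves out Psmc3ip, which is not a proteasome gene, the Psme2 copy Psme2b and 4 annotated pseudogenes of Psmb5, Psmb6 and Psmb7.

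The libraries are total RNA of the left cerebral cortex from B6CASTF1/J females at 2 months of age, the F1 hybrid of C57BL/6J and CAST/EiJ. No treatment or engineered allele is given in the labels, and there is a single group of 2 libraries, labelled biological replicates 1 and 2. The RNA input was 300 ng per library, and ERCC spike-ins (synthetic control RNAs) were added. The 2 tissue samples are numbered separately and carry the same donor entry, and no label says in words that they are separate animals, so the spread between them may be technical.

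The core of the proteasome is a stack of 4 rings: alpha subunits gate the entrance, and beta subunits line the chamber where proteins are cut. Only 3 of the constitutive beta subunits are proteases, Psmb5, Psmb6 and Psmb7, and cells exposed to interferon gamma can build in Psmb8, Psmb9 and Psmb10 in their places, which gives the immunoproteasome and changes which peptides reach MHC class I molecules. A cap of ATPases and ubiquitin-binding subunits unfolds the substrates, activators can bind the core in place of the cap, and chaperones put the rings together. In neurons the proteasome takes part in turnover of synaptic proteins.

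The tables held 31196858 expected counts of annotated genes in replicate 1 and 32292150 in replicate 2. TPM, the share of a gene in all transcripts after correction for length, is the unit of level and is printed for replicates 1 and 2 in that order, and means carry the SD over n = 2 libraries. The markers matched a cortex label: the neuronal gene Snap25 stood at 1348 and 1306 TPM, and the excitatory neuron gene Slc17a7 at 562 and 537 TPM. All 7 microglial and all 5 endothelial markers were at 1 TPM or more in both libraries, and none of the 7 lymphocyte and leukocyte markers was. A chi-square of the counts over 12843 genes was 65202 on 12842 degrees of freedom, so the 2 libraries differed by more than counting error.

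Of the 48 genes, 44 reached 1 TPM in both libraries, or 91.7%, where 58.8% of all protein-coding genes did so, and 39 reached 10 TPM. The median gene of those 44 lay above 89.1% of all nuclear protein-coding genes, a set that includes those under 1 TPM. The 4 exceptions were genes of restricted or inducible use: the testis alpha subunit Psma8, the thymus beta subunit Psmb11 and the immune subunits Psmb8 and Psmb9. In bulk tissue, fewer cells that hold such a gene and less RNA per cell cannot be told apart.

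**Figure D1:**
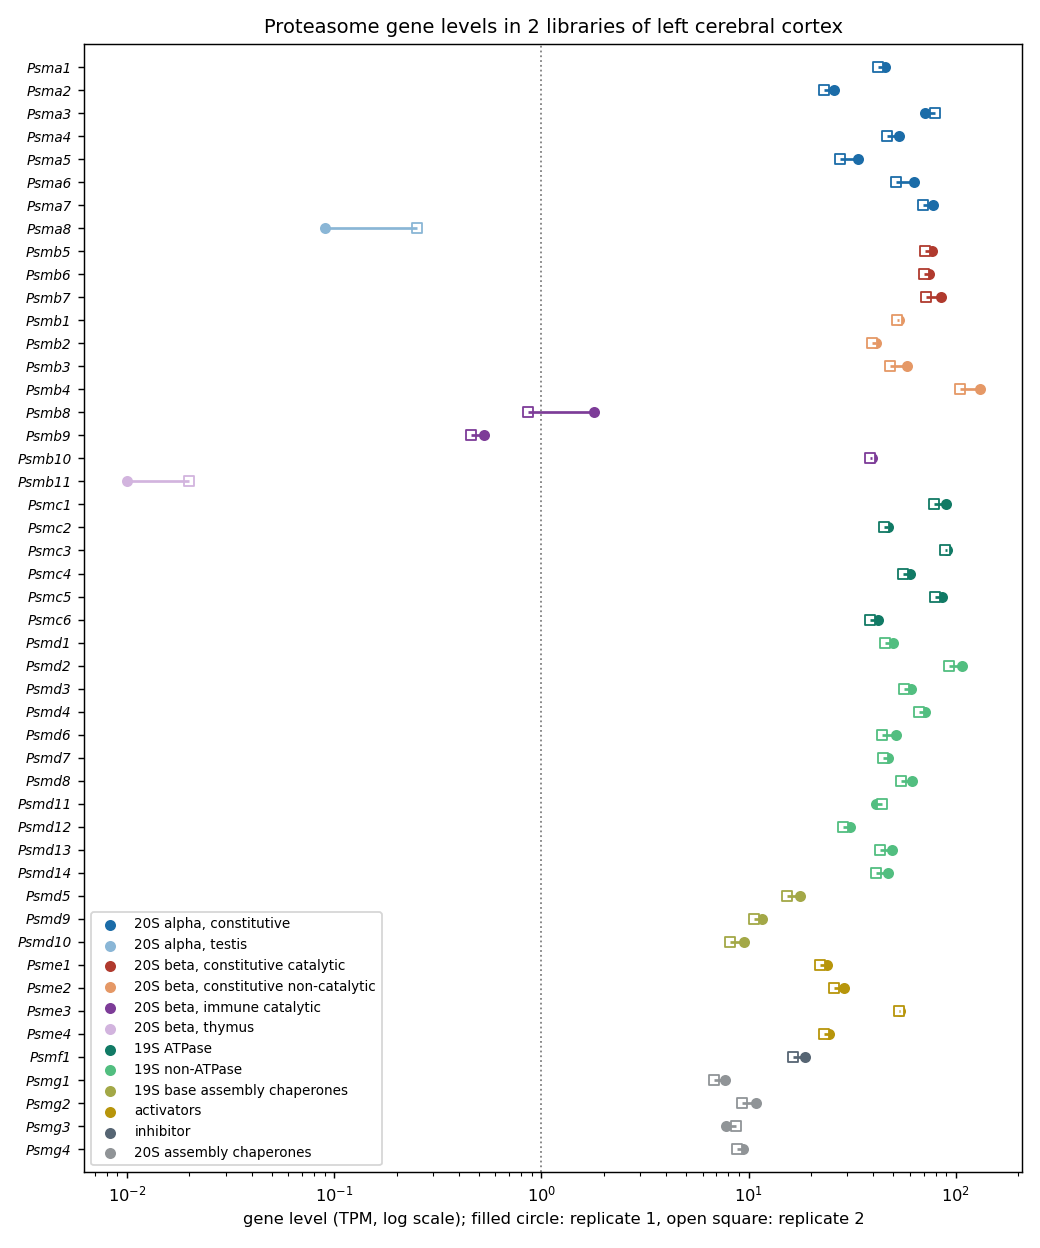
Gene level in TPM (log axis) of the 48 proteasome genes, with replicate 1 as a filled circle and replicate 2 as an open square, coloured by role. The constitutive ring and cap genes sit between 23.1 and 131 TPM, the chaperones lie lower, Psmb8 straddles the dotted line of 1 TPM, and Psma8, Psmb9 and Psmb11 lie below it.

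The 14 constitutive core genes spanned a 4.81-fold range of mean TPM although their proteins enter the particle in equal number. This range counts all transcripts of each gene, coding or not. The median of the 14 was 60.6 TPM in replicate 1 and 51.9 TPM in replicate 2 (56.3 ± 6.17), against 16.0 TPM for all protein-coding genes that reached 1 TPM. The SD of log2 TPM among them was 0.594 and 0.598, so the unevenness was the same size in both libraries. Psmb4, a beta subunit without protease activity that joins the beta ring last, was the highest at 131 and 105 TPM (117.7 ± 18.4). Only 50.6 ± 8.66% of that TPM was in transcripts typed as protein-coding. The coding transcript had 58.15 and 59.39 TPM, below the leading coding transcripts of Psmb5, Psmb6 and Psmb7 in both libraries. In the read-based tables, described below, it had 97.2 and 94.2 TPM. That was above the leading coding transcripts of Psmb5 and Psmb6 and below that of Psmb7 in both libraries. Over all transcripts, the read-based tables put Psma3 (149 and 162 TPM) higher by mean than Psmb4 (157 and 150 TPM). Of that read-based TPM, only 8.30 ± 0.383% of Psma3 was in transcripts typed as protein-coding, and 62.4 ± 0.543% of Psmb4. Psma2, an alpha subunit, was the lowest at 25.9 and 23.1 TPM (24.5 ± 1.94). The levels of Psmb4 and Psma2 did not overlap, but these genes were picked as the extremes by these same values.

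In the alpha ring, whose amino-terminal tails form the gate, Psma3 (71.3 and 79.3 TPM) and Psma7 (77.5 and 69.3 TPM) were highest. Psma6 followed at 63.1 and 51.5 TPM, and Psma4 at 53.1 and 46.7 TPM. Psma1, at 45.4 and 42.3 TPM, and Psma5, at 33.9 and 27.7 TPM, lay above Psma2 in both libraries. Psma8, the alpha subunit of testis that replaces Psma7 in spermatocytes, had 3 expected counts in each library (0.09 and 0.25 TPM), which is the limit that a count of 0 allows. The germline subunit thus had only these few counts, while its somatic counterpart was among the most abundant alpha genes.

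Among the beta genes without protease activity, Psmb1 stood at 53.1 and 52.3 TPM, Psmb3 at 58.1 and 48.2 TPM and Psmb2 at 41.4 and 39.3 TPM. By these gene levels, the 3 constitutive proteases were nearly level with each other, within 1.08-fold by mean TPM. Psmb5, which carries the chymotrypsin-like activity, had 76.8 and 71.2 TPM. Psmb6, the caspase-like subunit, had 74.3 and 70.3 TPM, and Psmb7, the trypsin-like subunit, 84.8 and 71.8 TPM. Psmb7 was highest, then Psmb5 and Psmb6, in both libraries, but the ranges of the 3 genes overlapped. These levels come from tables based on alignments. A further set of deposited tables, made from an index and the raw reads, is called read-based. It put Psmb6 (107.3 and 106.8 TPM) above Psmb5 (100.6 and 95.8 TPM). Psmb7 lay above both there, at 138.3 and 124.5 TPM, so the 3 proteases were less level in the read-based tables. Psmb11, the beta subunit of thymic cortical epithelium, had 1 and 2 expected counts.

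The immune proteases were not level with each other: Psmb8 and Psmb9 were at low but detected levels, and Psmb10 was within a few-fold of the subunit it replaces. Psmb8, the immune counterpart of Psmb5, had 35 and 18 expected counts, with exact Poisson 95% intervals of 24.4 to 48.7 and 10.7 to 28.4, or 1.8 and 0.86 TPM. Psmb9, the counterpart of Psmb6, had 13 and 8 expected counts (intervals 6.92 to 22.2 and 3.45 to 15.8), or 0.53 and 0.46 TPM. Psmb10, the counterpart of Psmb7, had 504 and 555 expected counts, or 39.4 and 38.6 TPM (39.0 ± 0.530). In both libraries Psmb10 lay below every constitutive protease, and above Psma2 and Psma5 of the constitutive core.

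Set pair by pair, Psmb5 was 42.7-fold and 82.8-fold above Psmb8 in TPM, a log2 ratio of 5.89 ± 0.677. Psmb6 was 140.1-fold and 152.9-fold above Psmb9, a log2 ratio of 7.19 ± 0.0890. This small spread held only for gene TPM: the same ratio was 80-fold and 132.4-fold on expected counts, 86.2-fold and 170.4-fold in the read-based tables and 199-fold and 553-fold over coding transcripts. The 553-fold rests on 0.78 expected counts in coding transcripts of Psmb9 in replicate 2, all of them in Psmb9-202. Psmb7 exceeded Psmb10 by only 2.15-fold and 1.86-fold, a log2 ratio of 1.00 ± 0.151. In gene TPM, the ratio of Psmb5 over Psmb8 varied most between the libraries, in step with the count of Psmb8. Among the immune genes themselves, Psmb10 was 21.9-fold and 44.9-fold above Psmb8 and 74.3-fold and 84.0-fold above Psmb9. The exact intervals of the Psmb8 and Psmb9 counts cover counting error only.

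The 3 immune genes together made up 15.02% and 15.8% of the summed TPM of the 6 proteases (15.4 ± 0.529%). Without Psmb10, the share of Psmb8 and Psmb9 was 0.839% and 0.521%. Psmb10 thus supplied nearly all of the immune share. On expected counts, which carry no length correction, the share of the 3 genes was 11.7% (exact binomial 95% interval 10.8 to 12.7) and 12.7% (11.8 to 13.7).

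Most of the TPM of Psmb10 was assigned to transcripts other than its coding one. Psmb10 (ENSMUSG00000031897.9, chromosome 8, 105935735 to 105938444, minus strand, mm10) has 7 annotated transcripts, and only Psmb10-201, with 8 exons, is typed as protein-coding. In the alignment-based tables, Psmb10-201 had 8.82 and 8.96 TPM, which is 22.8 ± 0.568% of the TPM of the gene and 43.1 ± 0.354% of its expected counts. The retained-intron transcript Psmb10-205 led instead, at 14.9 and 17.9 TPM, and the non-coding Psmb10-203 had 11.6 and 5.78 TPM. Psmb10-207, another retained-intron form, had 0 and 1.4 TPM there. In the read-based tables, Psmb10-201 led by mean at 19.8 and 23.1 TPM. Psmb10-205, slightly above it in replicate 1, had 20.02 and 13.98 TPM, with Psmb10-207 at 14.6 and 14.5 TPM, and Psmb10-203 had 3.62 and 4.21 TPM. The split among the transcripts thus depended on the quantification, but in both kinds of table most of the TPM of Psmb10 lay outside its coding transcript, which held 22.8% in the alignment-based and 32.0% in the read-based ones. By counts the tables differed: the coding transcript took 43.3% and 42.8% of the alignment-based and 56.4% and 62.1% of the read-based counts.

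The intronic bases that set the leading retained-intron transcripts apart are printed to show how short these stretches are. Psmb10-205 starts with the last 57 bases of intron 4, and Psmb10-207 has the last 46 of those bases and the whole 111 bases of intron 5. Both come from the GENCODE M21 transcript sequences and lie at chr8:105936982-105937038 and chr8:105936755-105936865 (mm10, minus strand). They are written 5′ to 3′ with the annotated splice dinucleotides in capitals.
Psmb10-205 intron 4: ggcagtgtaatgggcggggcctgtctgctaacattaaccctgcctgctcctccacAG
Psmb10-207 intron 5: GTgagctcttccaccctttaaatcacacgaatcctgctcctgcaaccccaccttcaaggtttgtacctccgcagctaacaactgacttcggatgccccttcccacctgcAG
Psmb10-206 keeps introns 3 and 5 whole as well, with 74 bases of intron 2. Psmb10-202 and Psmb10-204 keep intron 3 whole, and Psmb10-202 also has 36 bases of intron 6. The non-coding Psmb10-203 has 44 bases of intron 4. Reads within exons that the forms share can be assigned to several of them.

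**Figure D2:**
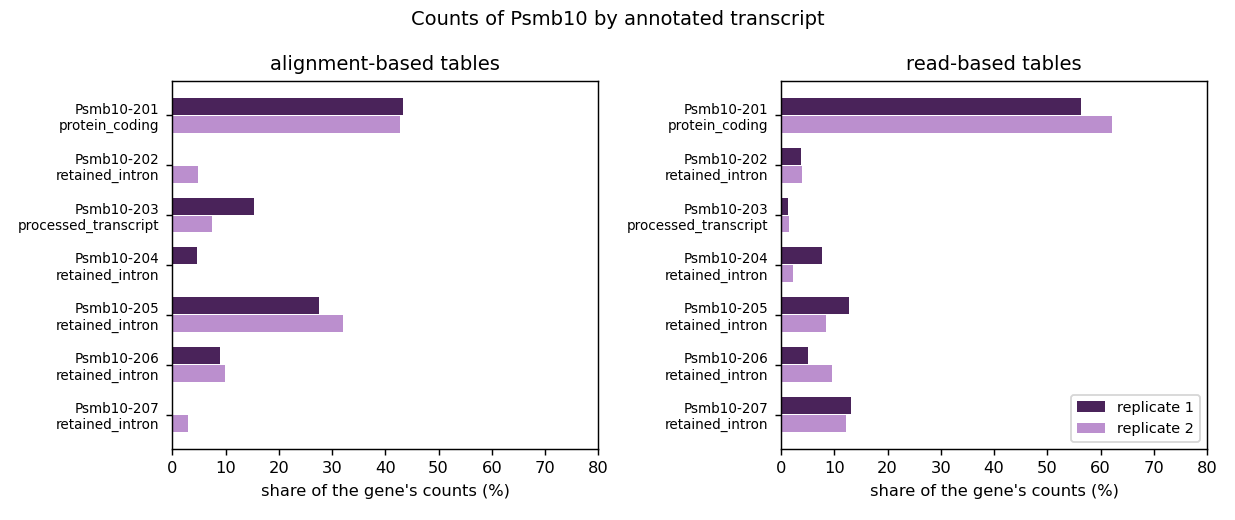
Share of the counts of Psmb10 (percent) assigned to each of its 7 annotated transcripts in both libraries, in the alignment-based tables (left) and the read-based tables (right). The coding transcript Psmb10-201 took 43.1% on average on the left and 59.2% on the right, with the rest spread over retained-intron and non-coding forms.

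Counting only transcripts typed as protein-coding, the distance between Psmb7 and Psmb10 grew to 9.54-fold and 7.95-fold in the alignment-based tables, and to 6.94-fold and 5.36-fold in the read-based ones. The share of the 3 immune genes was then 4.43% and 4.46% of the coding TPM of the proteases, or 6.76% and 7.57% in the read-based tables. Restricted to its coding transcript, Psmb10 lay below Psma2, all of whose counts were in coding transcripts. Psmb10-201 stayed above the coding transcripts of Psmb8 by 6.94-fold and 21.9-fold. This restriction was added after the transcript values had been seen.

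**Figure D3:**
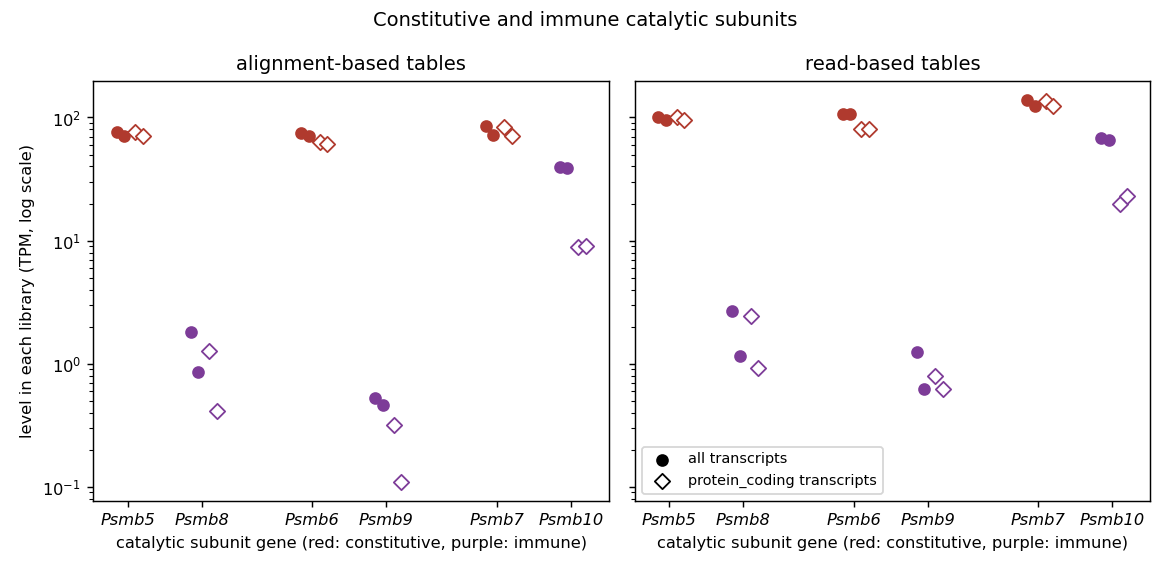
Level of the 6 protease genes in each library (TPM, log axis), with constitutive genes in red beside the immune gene that replaces them in purple; circles sum all transcripts and diamonds protein-coding transcripts alone. Psmb10 drops from 39.4 and 38.6 TPM to 8.82 and 8.96 TPM in the left panel, while Psmb5 and Psmb7 barely move and Psmb6 moves a little.

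The other proteases were carried by coding transcripts where their counts allowed a reading. Psmb5-201 held 99.1% and 97.96% of the TPM of Psmb5 in the alignment-based tables, and the remainder was the coding Psmb5-202, which took 18.0% and 22.4% in the read-based tables. Psmb6-201 held 85.7% and 86.5%, with 11.1% and 10.1% in the retained-intron Psmb6-202. Psmb7-201 held a mean of 99.2%. For Psmb8, the coding Psmb8-203 led in the alignment-based tables (1.06 and 0.41 TPM) ahead of the retained-intron Psmb8-205 (0.54 and 0.33 TPM), and in the read-based tables Psmb8-203 had 1.31 and 0 TPM and the coding Psmb8-201 1.13 and 0.93 TPM. Psmb8-201 had 0.21 and 0 TPM in the alignment-based tables, and the retained-intron Psmb8-202 0 and 0.13 TPM in the read-based ones. For Psmb9, the coding Psmb9-204 was listed at 0.32 and 0 TPM and the nonsense-mediated-decay form Psmb9-207 at 0 and 0.36 TPM. The coding Psmb9-202 had 0 and 0.11 TPM, and the retained-intron Psmb9-206 0.15 and 0 TPM. In the read-based tables Psmb9-204 led by mean at 0.36 and 0.52 TPM, and Psmb9-203, also coding, had 0.44 and 0.11 TPM. Psmb9-206 had 0.38 and 0 TPM there. At 8 to 35 counts, no leading form of Psmb8 or Psmb9 could be read from these libraries.

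Across the 44 genes at 1 TPM or more, Psmb10 was the only member with under 50% of its expected counts in coding transcripts, where 5.95% of all protein-coding genes at that level fell below 50%. Psmf1 came next at 60.3 ± 2.40%, then Psmd13 at 62.7 ± 0.513% and Psma3 at 63.0 ± 3.53%. The median member had 93.8% of its counts in coding transcripts, beside 95.4% over all such genes, and 27 members had 90% or more. By TPM, 2 members were below 50%, Psmb10 and Psme2 (48.4 ± 1.81%), where 10.5% of all such genes were. In the read-based tables Psma3, at 32.8 ± 0.151% of counts, and Psmc4, at 40.2 ± 2.04%, fell below 50% and Psmb10 did not (59.2 ± 4.04%). By read-based TPM, Psma3 (8.30%), Psmc6 (24.2%), Psmb10 (32.0%), Psmc4 (41.1%) and Psmd13 (42.6%) were below 50%. The share over all protein-coding genes was not computed for the read-based tables.

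**Figure D4:**
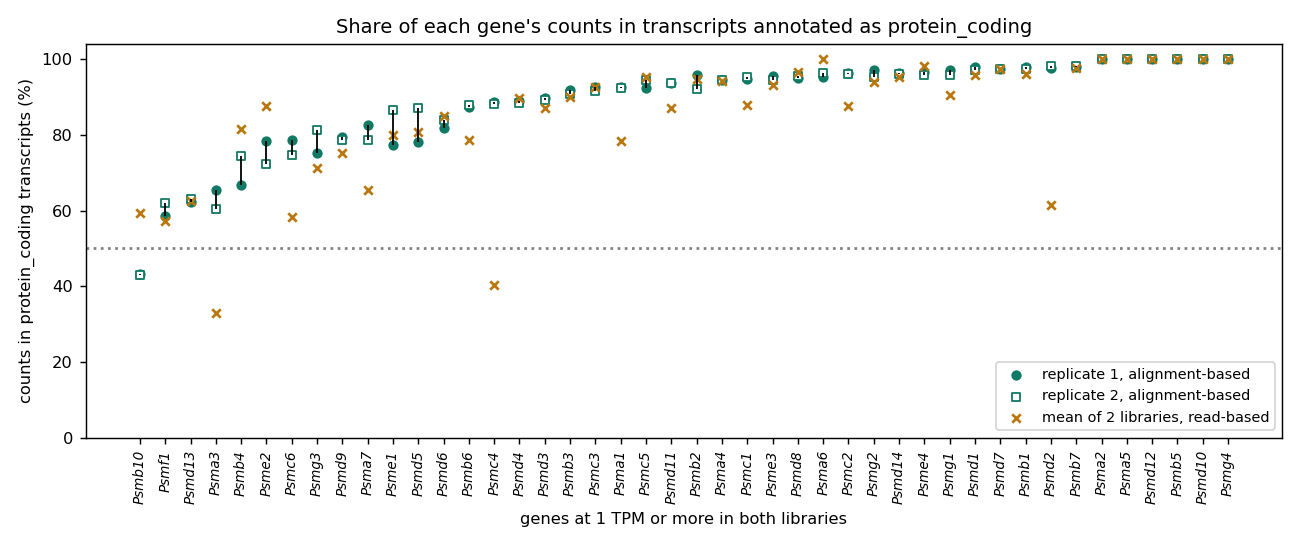
Percent of the counts of each gene in transcripts typed as protein-coding, for the 44 genes at 1 TPM or more, ordered by the alignment-based mean; circles and squares are the 2 libraries and crosses the read-based mean. Psmb10 is alone under the 50% line by the alignment-based values, and the crosses of Psma3 and Psmc4 lie under it by the read-based values.

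The transcript with the highest TPM was the same in both kinds of table for 37 of the 44 genes, where the background over protein-coding genes was 77.4%. In the alignment-based tables the leading form was not coding for 1 member, Psmb10, beside 7.76% of all such genes. The 7 genes that differed were Psma3, Psmb1, Psmb10, Psmc6, Psmd8, Psmd13 and Psme2. For Psmb1 and Psmd8 the change was between coding forms: Psmb1-201 held a mean of 83.5% of the TPM in the alignment-based tables, and Psmb1-204 92.4% in the read-based ones. Psmd8-202 held 83.5% and Psmd8-201 63.5% in the same order. For 3 genes a coding form gave way to one of another type in the read-based tables. Psma3-204 (35.9%) was replaced by the nonsense-mediated-decay form Psma3-201 (42.9%). Psmd13-208 (31.05%) gave way to Psmd13-211 (39.9%), also annotated as a decay substrate, and Psmc6-201 (51.2%) to the non-coding Psmc6-206 (26.1%). For Psme2, the coding Psme2-201 (35.8%) was replaced by the coding Psme2-208 (66.3%). Psmd13, Psme2 and Psma3 were also the members with the lowest share in their leading alignment-based form.

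The cap genes were at levels similar to the core. The 6 ATPases, which form the ring that unfolds substrates and threads them into the core, had a median of 73.0 and 67.3 TPM (70.2 ± 4.05). Psmc3 was highest at 90.4 and 88.4 TPM, followed by Psmc1 at 89.4 and 79.0 TPM and Psmc5 at 85.9 and 79.9 TPM. Psmc4 had 60.2 and 55.6 TPM, Psmc2 47.2 and 45.1 TPM and Psmc6 42.4 and 38.6 TPM. The upper and the lower 3 ATPases, a split made by these same values, did not overlap, and the range over the ring was 2.21-fold.

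The 11 non-ATPase cap genes had a median of 49.95 and 44.5 TPM (47.2 ± 3.84). Psmd2, the large base subunit that docks shuttle factors carrying ubiquitin chains, was highest at 107.3 and 93.1 TPM. Psmd4, a ubiquitin receptor, had 71.1 and 66.7 TPM. Psmd14, the metalloprotease that removes ubiquitin from substrates as they enter, had 47.2 and 41.2 TPM, close to its partner Psmd7 at 47.3 and 44.5 TPM. Psmd1, the other large base subunit, had 49.95 and 45.6 TPM, less than Psmd2 in both libraries. The lid subunits were Psmd3 at 61.0 and 56.5 TPM, Psmd8 at 61.3 and 54.7 TPM, Psmd6 at 51.3 and 44.1 TPM, Psmd13 at 49.3 and 43.2 TPM and Psmd11 at 41.4 and 44.1 TPM. The lowest was the lid subunit Psmd12 at 30.7 and 28.7 TPM, 3.37-fold below Psmd2 by mean.

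The 4 activators had a median of 25.6 ± 1.59 TPM. Psme3, which forms the nuclear activator ring, stood apart at 53.6 and 53.3 TPM. Psme1 (24.1 and 22.1 TPM) and Psme2 (29.0 and 25.8 TPM), whose proteins form a mixed ring that interferon gamma induces, were at about the level of Psme4 (24.4 and 23.2 TPM), the large single-chain activator of the nucleus. The interferon-inducible activators were therefore present at levels far above those of Psmb8 and Psmb9, with 424 and 431 expected counts for Psme1 and 274 and 277 for Psme2. Psmf1, which binds the core and inhibits it in vitro, had 18.7 and 16.5 TPM.

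Chaperones that assemble the particle were the lowest constitutive members in the alignment-based tables. The 4 chaperones of the core, which act in pairs on the alpha ring, had a median of 8.67 ± 0.0990 TPM: Psmg1 7.66 and 6.79 TPM, Psmg2 10.9 and 9.31 TPM, Psmg3 7.79 and 8.68 TPM and Psmg4 9.4 and 8.79 TPM. The range among them was 1.40-fold. The chaperones of the cap base were Psmd5 at 17.6 and 15.3 TPM, Psmd9 at 11.6 and 10.6 TPM and Psmd10, also called gankyrin, at 9.52 and 8.1 TPM. In the alignment-based tables, all 7 chaperones lay below every constitutive ring and cap gene in both libraries. In the read-based tables Psmd5 (37.4 and 38.3 TPM) lay above Psma2 (31.3 and 28.3 TPM).

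Genes that work with the proteasome under other symbols were also abundant, and none of them was called different between the libraries beyond 1.5-fold. Of the 9 other proteasome-bound proteins matched, all reached 1 TPM. Pomp, the maturation chaperone of the core, had 88.9 and 79.7 TPM and lay above all Psmg chaperones. Zfand5, a proteasome-binding zinc finger protein, had 72.3 and 64.3 TPM, and Usp14, a deubiquitinase on the cap, 69.3 and 64.0 TPM. The deubiquitinase Uchl5 was lowest at 18.3 and 15.4 TPM. The cap subunits Sem1 (19.2 and 17.8 TPM) and Adrm1 (48.7 and 43.0 TPM), which the symbol rule does not reach, were chosen for mention after their values had been seen.

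Nfe2l1, the transcription factor that raises proteasome genes when proteasome activity drops, had 124.3 and 123.98 TPM, and its relative Nfe2l2, the factor of the oxidative stress response, 5.98 and 4.84 TPM. Ddi2, the protease that cleaves the Nfe2l1 protein, had 20.8 and 20.7 TPM, and Ngly1, which removes its sugars, 13.4 and 11.5 TPM. Of the 9 shuttle factors and segregase genes, Ubqln2 (99.5 and 95.4 TPM), Rad23b (89.2 and 76.8 TPM) and Vcp (79.6 and 76.7 TPM) were highest and Nploc4 (31.03 and 30.98 TPM) lowest. Among ubiquitin genes and activating enzymes, the polyubiquitin gene Ubb led at 756 and 724 TPM. The activating enzyme Uba6 was lowest at 11.8 and 10.8 TPM.

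Antigen presentation genes, which use the peptides of the immunoproteasome, were at mixed levels. Of the 8 listed, 7 reached 1 TPM in both libraries. B2m, the light chain of MHC class I, had 49.6 and 46.4 TPM, and the peptide-loading factor Tapbp 25.3 and 18.9 TPM. The heavy chains H2-D1 and H2-K1 had 11.8 and 8.69 TPM and 9.43 and 8.41 TPM. The peptide transporter genes were low: Tap2 had 5.04 and 3.32 TPM and Tap1 1.1 and 1.47 TPM. The trimming peptidase Erap1 had 4.81 and 4.69 TPM and Nlrc5, the activator of MHC class I genes, 0.34 and 0.22 TPM. Tap1, like Psmb8 and Psmb9, was under 2 TPM in both libraries.

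These low genes are neighbours in the MHC region of chromosome 17 (mm10). Psmb9 spans 34181987 to 34187764 on the minus strand and its exons share 212 bases with Tap1, which spans 34187553 to 34197225 on the plus strand. Psmb8 follows at 34197721 to 34201454 and Tap2 at 34203527 to 34216321, both on the plus strand. Psmb10 lies elsewhere, on chromosome 8. The activators Psme1 (55578123 to 55581529) and Psme2 (55587441 to 55591113) are neighbours on chromosome 14, as are Psmb5 (54614119 to 54618022) and the thymic Psmb11 (54621433 to 54629556).

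All 8 interferon signalling genes listed reached 1 TPM: Ifnar1 had 24.5 and 19.3 TPM, Ifngr2 13.9 and 13.98 TPM, Stat2 13.8 and 12.5 TPM and Irf1, the lowest, 2.75 and 2.82 TPM. Genes that receive and relay interferon were thus at higher levels than Psmb8 and Psmb9. Microglial markers summed to 145 and 143 TPM (7 of 7 at 1 TPM or more), and endothelial markers to 91.2 and 88.5 TPM (5 of 5). Lymphocyte and leukocyte markers summed to 1.9 and 0.95 TPM. Of these, Ptprc was highest by mean, at 1.64 and 0.71 TPM. The leukocyte sum, most of it Ptprc, and Psmb8 were both lower in replicate 2. Ptprc had 82 and 68 counts, a log2 ratio of -0.29 with an interval of -0.78 to 0.19 that held equality. In the read-based tables Ptprc had 2.04 ± 0.0341 TPM. The part of leukocyte or microglial RNA in the level of Psmb8 was not tested.

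Promoter letters known from proteasome and interferon control are printed for the proteases, since constitutive and immune genes are known to answer to different factors. RefSeq promoters (GRCm38.p6, 250 bases before the start to 50 after it) matched 40 of the 48 genes; those not matched were Psma8, Psmb1, Psmb2, Psmb7, Psmc3, Psmd3, Psmd7 and Psmg2. Searched on both strands, the antioxidant response core TGACNNNGC occurred in 6 of the 40 (15%, and 13.99% of 27025 genes): Psmb5, Psmb6, Psmc6, Psmd9, Psmd12 and Psme4. The gamma-activated letters TTCNNNGAA occurred in 3 (7.5%, and 9.55% of all): Psmb8, Psmd2 and Psmg1. The interferon-stimulated letters GAAANNGAAA occurred in 5 (12.5%, and 3.99% of all): Psmb3, Psmd4, Psmd9, Psme1 and Psmg4. Psmd9 held 2 of the motifs, which did not overlap. Psmb9 and Psmb10 held none, which says only that these letters are not in their windows. The stretches around the matches at the 3 proteases that hold one are chr14:54618004-54618072 (minus strand), chr11:70525318-70525356 (plus strand) and chr17:34198068-34198136 (plus strand), with the match in capitals.
Psmb5: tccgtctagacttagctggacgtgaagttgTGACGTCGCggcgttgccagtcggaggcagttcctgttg
Psmb6: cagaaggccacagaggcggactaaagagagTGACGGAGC
Psmb8: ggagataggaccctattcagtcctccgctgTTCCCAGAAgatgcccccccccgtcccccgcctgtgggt
The matches begin 47, 9 and 97 bases before the RefSeq starts of Psmb5, Psmb6 and Psmb8, the last of which lies downstream of the outermost annotated start of Psmb8. A match describes letters and not binding.

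Between the libraries, no proteasome gene was called different. A gene was called where the exact 95% interval of the scaled count ratio lay wholly beyond 1.5-fold, and 0 of 46 genes averaging 10 counts or more met this, where the background was 0.479% of 18562 genes (0.248% higher and 0.232% lower in replicate 2). With no fold limit, the interval excluded equality for 9 genes, all lower in replicate 2, and for none in the other direction. Over all genes tested, 6.89% were lower and 8.17% higher by that rule. The 9 were Psma5, Psma6, Psmb3, Psmb7, Psmb8, Psmc6, Psmd2, Psmd6 and Psmd14. Of the 46, 37 had a log2 ratio below 0, where 9336 of all 18562 genes tested did. The median was -0.06 over the 46, beside 0.00 over all genes tested.

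Psmb8 differed most, with a log2 ratio of -0.96 (interval -1.89 to -0.12) from 35 and 18 counts. Next came Psmb3 at -0.22 (-0.37 to -0.07) and Psma5 at -0.21 (-0.36 to -0.06), from 810 and 705 and from 790 and 692 counts. Psmb9, at -0.69, had an interval of -2.20 to 0.66 that held equality. Psmb10 went the other way at 0.12 (-0.06 to 0.29). Scaling by the library total gave 15 lower genes, where 11.1% of all genes tested were lower and 5.09% higher. DESeq2 size factors and spike-ins gave 8 lower genes each, where 6.76% and 6.34% of all genes were lower. None of the 46 was higher under any of these scalings. Beside this shift, oligodendrocyte markers had a median log2 ratio of 0.20 (3 of 4 higher with equality excluded) and red blood cell markers 0.41 (3 of 5), and their part in the shift was not tested.

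**Figure D5:**
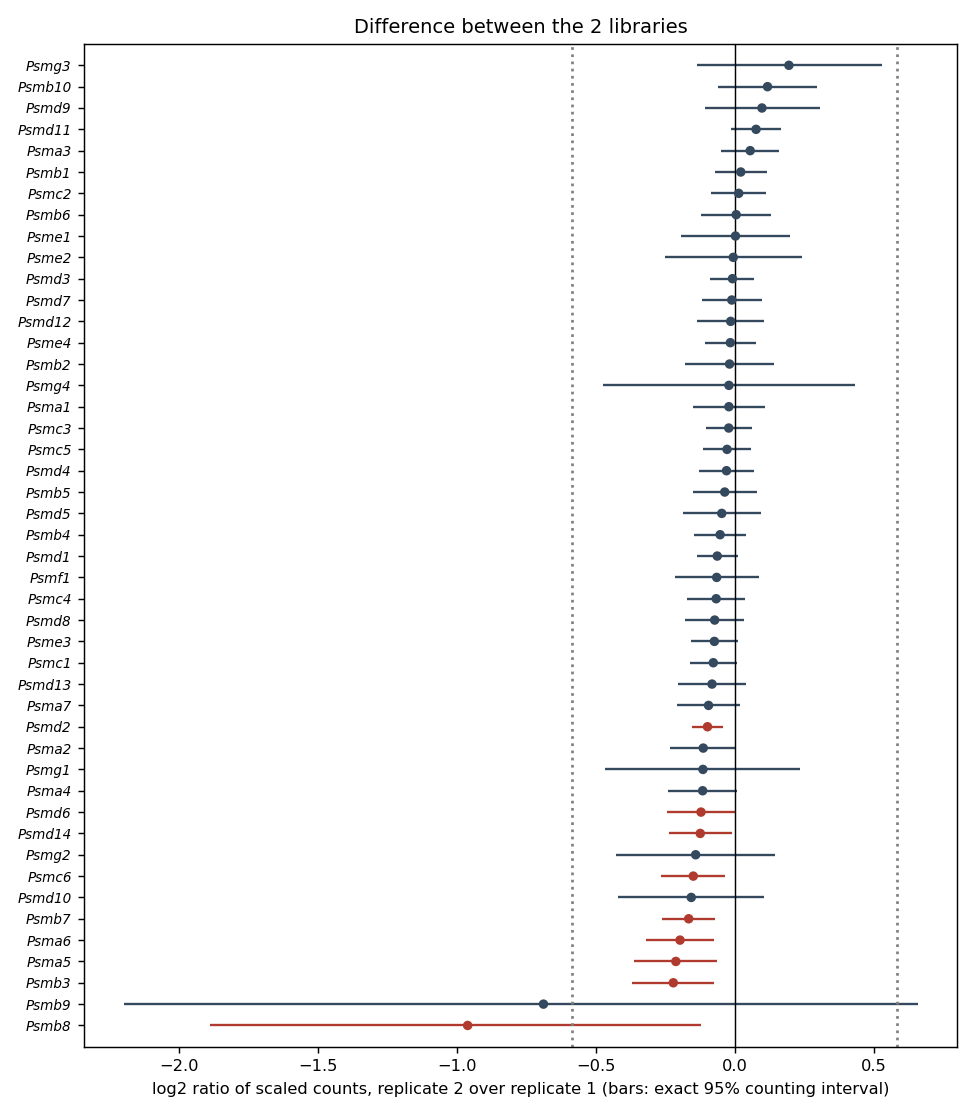
Log2 ratio of scaled counts, replicate 2 over replicate 1, with exact 95% counting intervals, for the 46 genes averaging 10 counts or more (dotted lines: 1.5-fold). Genes in red, 9 in all, have intervals that exclude 0 on the lower side; Psmb8 and Psmb9 have the widest intervals, and no interval lies wholly beyond a dotted line.

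Some of these levels share sequence with other loci. For 9 of the genes, annotated copies of 200 bases or more shared 95% identity across 80% or more of the shorter sequence. The copies took over 5% of the summed TPM for 5 genes: Psma3 (14.2% and 8.46%), Psma5 (15.02% and 17.6%), Psmb3 (11.5% and 11.4%), Psmb5 (9.97% and 7.98%) and Psmd11 (10.9% and 12.7%). Reads of these genes and their copies may have been divided between them, so these levels are uncertain. For Psmd11, most of the copy TPM was that of A730017L22Rik (4.96 and 6.03 TPM), which matches in the opposite orientation. Exons of Psmb7 share 405 bases with Nek6 on the opposite strand (14.2 and 12.6 TPM), those of Psmd13 342 bases with Sirt3 (32.5 and 32.7 TPM) and those of Psmc3 215 bases with Slc39a13 (16.1 and 12.9 TPM). On the same strand, Psmb5 shares 109 of its 899 exon bases with Mir686 (26.9 and 8.41 TPM) and Psmd1 shares 301 bases with Gm21972 (3.84 and 2.29 TPM), which strand cannot separate. The labels name stranded libraries, and the use of strand in counting is not given in the sources used here.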

How the data were processed

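Per the file list supplied for each library, the deposited values are on assembly mm10 with GENCODE M21. From alignments to the transcriptome the authors deposited gene and transcript tables of expected counts and TPM (alignment-based). The deposited transcript tables also give each transcript's percent of its gene, which was recomputed here from TPM. The authors also deposited estimated counts and TPM per transcript made from the reads and an index (read-based), which were summed per gene here. Which aligner and quantification tools made them is not given in the sources used here. TPM as deposited sums to 1000000 over all features. mm10 is the C57BL/6J genome, and levels by parental allele were not analysed here.

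Gene levels came from the alignment-based gene tables. Expected counts were rounded and scaled with TMM (edgeR 4.0.16, R 4.3.3) over genes averaging 10 counts or more, a factor of 1.01 for replicate 2 over replicate 1. The log2 ratio of the 2 libraries used a prior count of 0.5, with an exact Clopper-Pearson 95% interval. The labels name no molecular identifiers and PCR copies are not independent, so intervals and limits cover counting error only. With 1 group there was no comparison of conditions and no p-value. At these depths, 3 counts over an effective length of 1 kb correspond to 0.147 and 0.137 TPM.

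The genes and lists were chosen with earlier results of these data known. The text names every Psm gene of the rule, all antigen presentation genes, and of each other list the 3 highest and the lowest by mean TPM, or the whole list where it has 4 genes; some genes that this rule takes in are left out of the text. Transcripts named are those of the 6 proteases with at least 10% of the gene's TPM in a library, leading forms that differ between the tables, and those of the 3 genes with the least dominant form. The gene Paaf1 of the list of proteasome-bound proteins was not matched. The interval rule was tested on data simulated from these 2 libraries over 18552 genes with a coefficient of variation of 4%. Of 18352 unchanged genes it called 1. The real libraries had 0.479% of 18562 genes called, so this small number holds only for the simulated spread. Of 50 genes per fold size, drawn at 100 counts or more, it called 5 at 1.5-fold (the limit itself), 48 at 2-fold and 50 each at 3-fold and 4-fold. Copies were found with blastn 2.17.0. Alternatives covered the scaling (DESeq2 1.42.0 size factors, totals, spike-ins), the table, the length correction, thresholds and each replicate left out.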

Additional observations from a re-analysis of the deposited data

Results flagged for a closer look

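Psmb11, the thymic beta subunit, had a signal in the read-based tables that the gene levels of the report do not use. Its estimated count there was 20.5 in replicate 1 and 33.6 in replicate 2 (0.327 and 0.523 TPM), above the 3 counts taken as the floor. The alignment-based tables gave it 1 and 2 expected counts. Psmb11 was drawn to attention by this excess, and the cause of the difference between the tables was not tested.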

How the results depend on the processing

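Medians of TPM depended on the table and on the features that enter the sum. For the constitutive core genes, the ATPases and the other cap genes they were 97.95, 111 and 79.1 TPM in the read-based tables. Rescaled over nuclear protein-coding genes alone, they were 124, 154 and 103.9 TPM. The SD of log2 TPM among core genes was 0.623 in the read-based tables. The log2 ratio of Psmb6 over Psmb9 was 6.92 in the read-based tables and 6.69 on expected counts. It was 8.37 over protein-coding transcripts, with 0.78 expected counts of Psmb9 in replicate 2, and 6.84 over those in the read-based tables. That of Psmb7 over Psmb10 was 1.74 on expected counts, 3.12 over protein-coding transcripts and 2.61 over the read-based ones, and that of Psmb5 over Psmb8 was 6.68 over protein-coding transcripts. The immune share was 17.2% in the read-based tables, 12.2% on expected counts, and 4.44% and 7.16% over protein-coding transcripts of the 2 kinds of table. Every one of these ratios kept its sign; the cause of the changes was not tested. With no fold limit 9 genes differed between the libraries, and with scaling by the total 15 were lower in replicate 2, where 11.1% of all genes tested were lower and 5.09% higher. The counts of genes at 1 TPM were 39 to 46 under the other thresholds and tables.

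With each replicate left out, the ratios ranged from 5.41 to 6.37 for Psmb5 over Psmb8, 7.13 to 7.26 for Psmb6 over Psmb9 and 0.89 to 1.11 for Psmb7 over Psmb10. The immune share ranged from 15.02% to 15.8%, the medians from 51.9 to 60.6, 67.3 to 73.0 and 44.5 to 49.95 TPM and the SD from 0.594 to 0.598. Genes at 1 TPM were 44 to 45 and those with the same leading transcript 35 to 38. No paired analysis was possible because the series holds a single group. The leading transcripts were compared across both kinds of table, so no other table was left to vary. Alternatives over protein-coding transcripts, and those for the 9 lower genes, were added after seeing the data. Depth limits Psmb8, Psmb9, Psma8 and Psmb11, all at 35 counts or fewer.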
